A study of Schizosaccharomyces pombe with 9 samples.

Results

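The genes cit1, idh1 and idh2 of fission yeast, Schizosaccharomyces pombe, encode the enzymes at the entry of the citrate cycle. They were taken as the probe sets that the probe annotation names cit1, idh1 or idh2, which gave 3 probe sets, 1 per gene, of the 2937 S. pombe probe sets among 10928 on the array. The genes were chosen by their lower values in both deletion strains than in the control, so those differences are given as a description and were not tested.

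Expression was measured on 9 Affymetrix arrays of 3 strains, 3 biological replicates each. The control, WT, was strain SPQ-01. In SD1 the gene rpl32-1 was deleted from SPQ-01, and in SD2 the gene rpl32-2. The annotation now calls these genes rpl3201 and rpl3202. Both deleted genes encode ribosomal protein L32 of the large subunit. No strain was treated, and each was grown in YEPD at 30 °C. Cells were taken at an OD600 of 5.0, which the labels call log phase. The full genotype of SPQ-01, the deletion markers and the number of independent deletion clones were not given in the sources used here.

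Citrate synthase, the product of cit1, joins acetyl-CoA to oxaloacetate and so starts the cycle in mitochondria. The NAD-dependent isocitrate dehydrogenase is built from Idh1 and Idh2 subunits and releases CO2 and NADH while forming 2-oxoglutarate. In the budding yeast Saccharomyces cerevisiae Idh2 carries the catalytic sites and Idh1 the regulatory ones. The cycle supplies NADH to respiration, and 2-oxoglutarate is also the carbon skeleton of glutamate. The current annotation lists glu3 as a synonym of idh1 and glu2 as a synonym of idh2. Fission yeast ferments glucose, and glucose lowers the expression of many genes of respiration in yeasts.

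The annotation gives cit1 the systematic name SPAC6C3.04, idh1 SPAC11G7.03 and idh2 SPBC902.05C. The probe annotation gives no place of a probe within its gene.

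Every value below is the deposited log2 expression value of a probe set, on which a step of 1 is a factor of 2. The deleted genes matched the labels, with rpl3201 at 4.17 to 6.04 in SD1 against 13.88 to 15.12 on the other arrays and rpl3202 at 7.25 to 8.89 in SD2 against 14.11 to 14.48. The median S. pombe value averaged 10.12 in WT, 10.07 in SD1 and 10.11 in SD2. Exact equal values tied the arrays together by replicate number (3934 to 4218 shared values per pair numbered 1, 74 to 80 numbered 2 and 168 to 353 numbered 3, against 0 to 4 between numbers), so differences are also given within each number, which holds 1 array of every strain. The tests had no term for the number. As a measure of RNA quality, the 3′ probe set of 18S rRNA minus its 5′ probe set gave -1.53 to -0.90 in WT, -0.44 to -0.33 in SD1 and -0.52 to -0.29 in SD2. The same difference for the rRNA of the large ribosomal subunit gave -0.47 to -0.077 in WT, 0.17 to 0.62 in SD1 and 0.13 to 0.37 in SD2. Both separated WT from the deletions, and their part in the results was not tested. The 3′ minus 5′ difference on the actin mRNA ACT1 overlapped between the strains (0.23 to 0.39 in WT, 0.27 to 0.33 in SD1 and 0.30 to 0.39 in SD2).

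All 3 genes were far above background on every array. Probe sets for S. cerevisiae have no matching RNA here, and their 95th percentile lay at 5.13 to 5.26. The 3 genes stood 5.95 to 8.60 above it in log2 terms. The array also carries S. cerevisiae probe sets for the same enzymes, and these lay near or below that level, at 4.97 to 5.78 for CIT1, 4.54 to 5.43 for IDH1 and 3.40 to 3.70 for IDH2. For each of these budding yeast probe sets the 3 strains overlapped.

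For the synthase gene cit1, the WT arrays numbered 1, 2 and 3 read 13.50, 13.77 and 13.26. The SD1 arrays read 12.63, 12.37 and 12.45, and the SD2 arrays 12.87, 12.58 and 12.68. Every array of a deletion lay below every WT array, and the SD1 and SD2 arrays overlapped by 0.049. WT averaged 13.51 ± 0.26 (SD, n = 3 in each strain), SD1 12.48 ± 0.13 and SD2 12.71 ± 0.15. In SD1 the mean was lower than in WT by -1.02 ± 0.14 (log2 difference ± SE), which is 49.2% of the WT level. In SD2 it was lower by -0.80 ± 0.14, or 57.5% of the WT level. In such bulk RNA, fewer cells with the transcript and less transcript per cell cannot be told apart. Both differences were taken against the same 3 WT arrays.

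For idh1 the WT arrays read 12.39, 12.77 and 12.27. The SD1 arrays read 11.19, 11.24 and 11.12, the tightest group among the 3 genes and 3 strains. The SD2 arrays read 11.60, 11.37 and 11.52. The 3 strains did not overlap, in the order SD1, SD2, WT from the lowest. WT averaged 12.48 ± 0.26 (SD, n = 3 in each strain), SD1 11.18 ± 0.058 and SD2 11.50 ± 0.12. The log2 difference from WT was -1.29 ± 0.13 (SE) in SD1, or 40.8% of the WT level. In SD2 it was -0.98 ± 0.13, or 50.7%. These were the largest differences among the 3 genes in both deletions.

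For idh2, the partner subunit gene, the WT arrays read 12.17, 12.64 and 12.22. The SD1 arrays read 11.19, 11.35 and 11.26, and the SD2 arrays 11.62, 11.57 and 11.71. The order was again SD1, SD2, WT with no overlap. WT averaged 12.35 ± 0.26 (SD, n = 3 in each strain), SD1 11.27 ± 0.080 and SD2 11.63 ± 0.070. The difference from WT was -1.08 ± 0.12 (log2 ± SE) in SD1, or 47.4% of the WT level, and -0.72 ± 0.12 in SD2, or 60.9%.

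Among all 2937 S. pombe probe sets, SD1 lay below WT with no overlap of the arrays for 28.6%, and SD2 for 20.2%. All 3 genes belonged to both sets. Both deletions lay below WT with no overlap for 556 probe sets (18.9%), the 3 genes among them. Of these 556, 195 also had SD1 below SD2 with no overlap, idh1 and idh2 among them. Those 195 are 6.64% of all probe sets. Ranked from the most negative difference, idh1 was number 38 in SD1 and number 50 in SD2. The gene idh2 was number 75 and number 123, and cit1 was number 84 and number 90. These ranks describe the values that led to the choice of the genes.

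**Figure D1:**
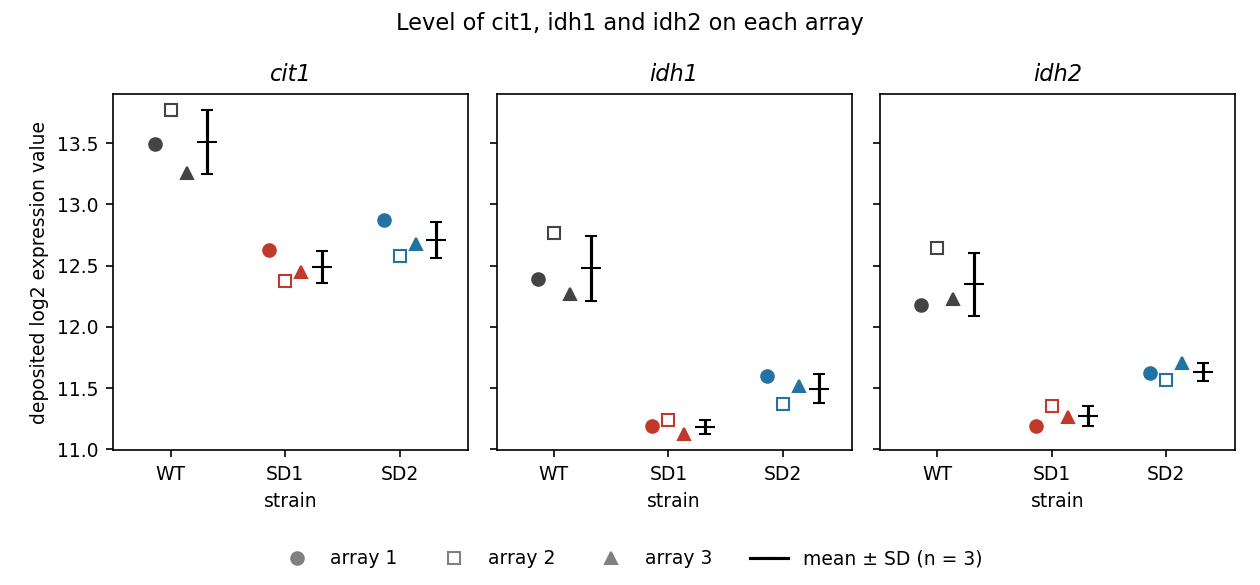
Deposited log2 expression value (vertical axis) of cit1, idh1 and idh2 on each of the 9 arrays, by strain (horizontal axis). Marker shapes give the array number, and bars the mean ± SD of 3 arrays. All SD1 and SD2 points lie below all WT points in each panel, and the SD1 and SD2 points overlap only for cit1.

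WT array 2 was the highest WT array for all 3 genes, as it was for 41.7% of S. pombe probe sets. It stood 0.26, 0.29 and 0.30 above the WT mean for cit1, idh1 and idh2. Differences were therefore also taken between arrays of the same number. For cit1, SD1 minus WT was -0.87, -1.40 and -0.81 within numbers 1, 2 and 3, and SD2 minus WT was -0.63, -1.19 and -0.58. For idh1 the same differences were -1.20, -1.53 and -1.14 in SD1 and -0.79, -1.40 and -0.75 in SD2. For idh2 they were -0.98, -1.29 and -0.96 in SD1 and -0.56, -1.08 and -0.52 in SD2. All 18 differences were negative, and within number 2 they were the most negative for each gene. Numbers 1 and 3 gave nearly the same values. Within numbers, the median over all S. pombe probe sets lay between -0.058 and 0.022 for the deletions against WT. Without WT array 2 the log2 differences in SD1 were -0.89 for cit1, -1.15 for idh1 and -0.93 for idh2.

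**Figure D2:**
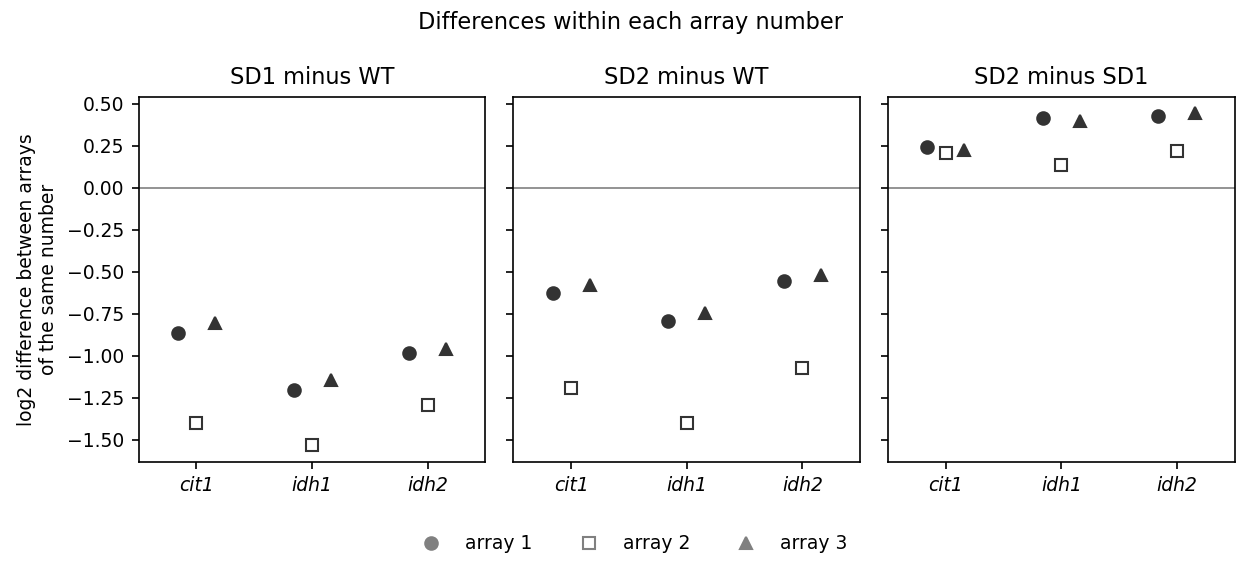
Log2 difference between arrays of the same number (vertical axis) for cit1, idh1 and idh2 in the 3 comparisons. Marker shapes give the array number. The SD1 and SD2 differences from WT lie between -1.53 and -0.52, and the SD2 minus SD1 differences between 0.13 and 0.44.

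The balance of the subunit genes of the dehydrogenase was also read on each array. The idh1 minus idh2 difference, set against its WT mean, ran from -0.088 to 0.091 on the WT arrays. It ran from -0.27 to -0.13 in SD1 (mean -0.22 ± 0.073, SD, n = 3) and from -0.33 to -0.15 in SD2 (mean -0.26 ± 0.10). Thus idh1 was lower relative to idh2 on every array of a deletion than on any WT array. The same held relative to cit1, so it was not particular to the subunit pair. The cit1 minus idh1 difference, set against its WT mean, ran from -0.042 to 0.071 in WT. It ran from 0.10 to 0.41 in SD1 and from 0.13 to 0.24 in SD2. The cit1 minus idh2 difference overlapped between the strains. Other gene pairs were not examined. These differences rest on the same values as above and were not tested. On the WT arrays cit1 lay 0.72 to 1.19 below the highest value of the array, idh1 1.73 to 2.23 and idh2 1.85 to 2.45. The part of this position near the top of the range in the cit1 differences was not tested.

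SD2 was compared with SD1 to ask whether loss of the L32 paralogs had different effects on these genes. This difference played no direct part in their choice and was tested with limma across all 2937 S. pombe probe sets. All 3 genes were higher in SD2 than in SD1, and 0 of them passed the test at an adjusted p of 0.05. For cit1 the log2 difference was 0.22 (95% interval -0.096 to 0.54, limma adjusted p = 0.615). For idh1 it was 0.31 (0.019 to 0.61, adjusted p = 0.413) and for idh2 0.36 (0.079 to 0.64, adjusted p = 0.317). The intervals are not adjusted for the number of probe sets, and their upper ends correspond to 1.46-fold, 1.52-fold and 1.56-fold. SD2 was higher within each array number for each gene, by 0.21 to 0.24 for cit1, 0.13 to 0.41 for idh1 and 0.22 to 0.44 for idh2. Within numbers 1, 2 and 3 the median over all S. pombe probe sets was 0.024, 0.016 and 0.053.

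In that comparison 0.0340% of all probe sets were called higher and 0.136% lower, while 11.4% had an unadjusted p under 0.05. The unadjusted p was under 0.05 for idh1 (0.0392) and idh2 (0.0179) but not for cit1 (0.146), from the limma fit. SD2 lay above SD1 with no overlap for 12.2% of probe sets, idh1 and idh2 among them. By an exact two-sided permutation test of 3 against 3 arrays, p was 0.1 for idh1 and idh2, the smallest value this design allows, and 0.2 for cit1, so this test could not reach 0.05.

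Upstream of citrate synthase, 7 of 10 listed genes for the entry of pyruvate and acetyl-CoA were measured. In SD1 2 of the 7 fell and 0 rose, beside 23.7% of all probe sets called lower and 19.5% called higher. The same 2 genes fell in SD2, where 14.3% of all probe sets were called lower and 17.6% higher. They were pkp1, a kinase gene whose product inhibits pyruvate dehydrogenase, and dld1, which encodes the dihydrolipoamide dehydrogenase that pyruvate dehydrogenase shares with the 2-oxoglutarate dehydrogenase complex. In log2 terms pkp1 was at -0.63 ± 0.068 (SE) in SD1 (limma adjusted p = 0.000219) and at -0.44 ± 0.068 in SD2 (adjusted p = 0.00205). The gene dld1 was at -0.43 ± 0.087 in SD1 (adjusted p = 0.00409) and -0.30 ± 0.087 in SD2 (adjusted p = 0.0286).

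The genes of the pyruvate dehydrogenase core did not pass in either deletion in the fit without the array number. The E1 subunit genes pda1 and pdb1 were at 0.04 and -0.05 in SD1 and at 0.09 and -0.05 in SD2 (log2). The E2 gene lat1 was at 0.15 in both, and pdx1, the E3-binding subunit gene, at 0.09 and 0.06. The pyruvate carboxylase gene pyr1, whose product refills oxaloacetate, was at -0.03 and 0.03. Their distances from WT were thus at most 0.15, against at least 0.72 for cit1, idh1 and idh2. Those 3 genes were chosen for their falls against WT, so the choice itself favours this contrast. The median of the 7 genes was -0.03 in SD1 and 0.03 in SD2, beside -0.03 and 0.01 over all S. pombe probe sets. Leaving out any of WT arrays 1 and 2, SD1 array 3 and SD2 arrays 2 and 3 ended the call on dld1 in SD2 and left 1.

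In the list for the remaining steps of the cycle, 9 of 15 genes were measured. This list, called cycle genes below, includes mae2, for malic enzyme, which is not itself a step of the cycle. In SD1 6 of the 9 fell and 1 rose, beside 23.7% and 19.5% of all probe sets. In SD2 3 fell and 0 rose, beside 14.3% and 17.6%. Succinate dehydrogenase, which also feeds electrons to the respiratory chain, accounted for several of the falls in SD1. Its flavoprotein gene sdh1 was at -0.67 ± 0.18 (log2 ± SE, limma adjusted p = 0.0166), the iron-sulfur subunit gene sdh2 at -0.80 ± 0.20 (adjusted p = 0.0132) and sdh3 at -0.46 ± 0.15 (adjusted p = 0.0352). The anchor gene sdh4 (tim18 in the current annotation) was at -0.42 ± 0.18 and did not pass (adjusted p = 0.0853). In SD2 these 4 genes were at -0.32, -0.36, -0.23 and -0.14, and 0 of them passed (limma, also 0 at an unadjusted p under 0.05).

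The fumarase gene fum1 fell in both deletions, by 0.53 ± 0.13 in SD1 and by 0.48 ± 0.13 in SD2 (log2 ± SE, limma adjusted p = 0.00919 and 0.0197). So did kgd2, the E2 gene of the 2-oxoglutarate dehydrogenase complex, at -0.37 ± 0.085 and -0.30 ± 0.085, and the malic enzyme gene mae2, at -0.42 ± 0.074 and -0.27 ± 0.074. The gene that rose in SD1 was lsc1, for a subunit of succinate-CoA ligase, at 0.21 ± 0.062 (adjusted p = 0.0243), and it was at 0.10 in SD2 without passing. The NADP-dependent isocitrate dehydrogenase gene idp1, whose product makes 2-oxoglutarate with a different cofactor from that used by Idh1 and Idh2, was at -0.10 and -0.08 and did not pass. Each of the 9 genes lay nearer to WT than any of cit1, idh1 and idh2 in the same deletion.

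The median log2 difference of the 9 genes was -0.42 in SD1 (-0.29, -0.79 and -0.27 within numbers 1, 2 and 3) and -0.27 in SD2 (-0.19, -0.44 and -0.16). In SD2 minus SD1 the median was 0.15, beside 0.04 over all S. pombe probe sets. Of the 9 genes 8 lay above 0, and 0 passed at an adjusted or an unadjusted p of 0.05 (limma). The calls on sdh1, sdh3 and lsc1 in SD1 were each lost when any of WT array 2, SD1 array 2 and SD1 array 3 was left out. Leaving out WT array 1 also ended the calls on lsc1 and sdh3, SD1 array 1 that on lsc1, and SD2 array 2 or median centring that on sdh3. In SD2 no cycle gene passed (0 of 9) when WT array 2, SD2 array 2 or SD2 array 3 was left out, and leaving out SD2 array 1 ended the call on kgd2. The other listed genes of the cycle, among them kgd1, kgd4, lsc2 and mdh1, were not analysed here.

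**Figure D3:**
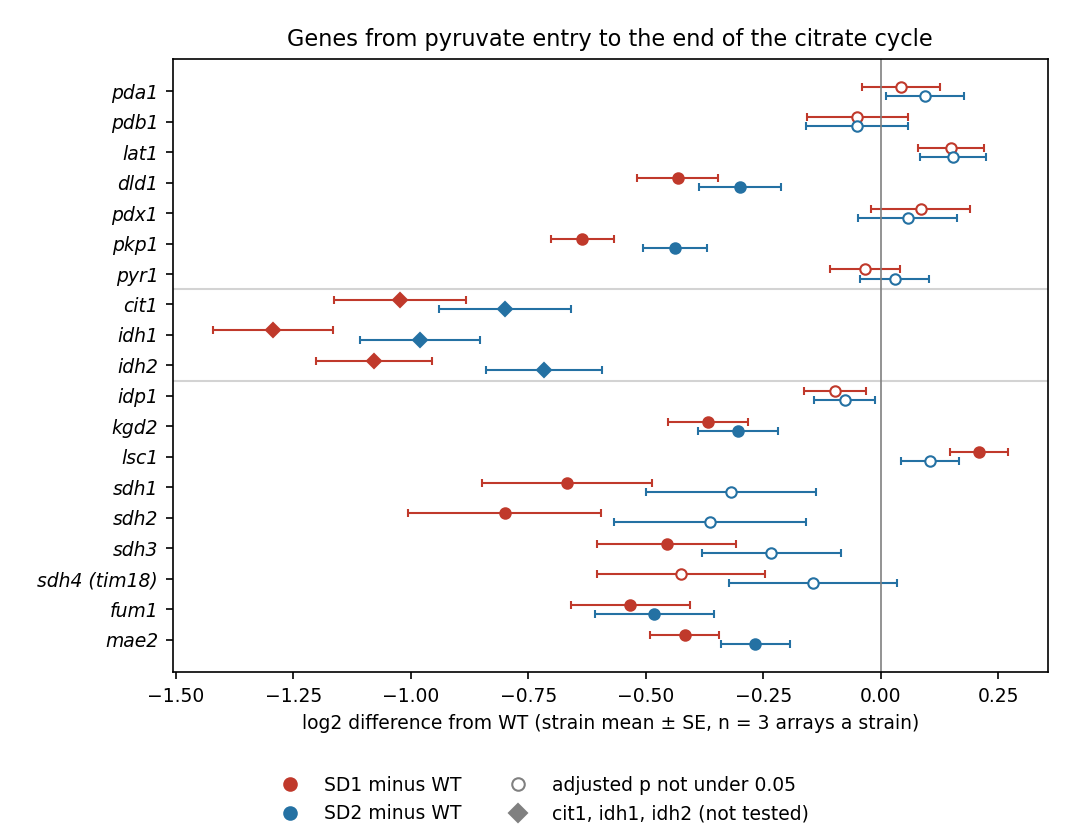
Log2 difference from WT (horizontal axis, strain means ± SE, 3 arrays a strain) of the measured genes from pyruvate entry to the end of the cycle. Filled circles passed the test, open circles did not, and diamonds mark cit1, idh1 and idh2. The 3 diamonds, chosen for their falls, lie at -1.29 to -1.02 in SD1 and -0.98 to -0.72 in SD2. The other genes lie between -0.80 and 0.21.

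A group around 2-oxoglutarate was examined next, made of glutamate and glutamine enzymes and of lysine and leucine enzymes. It includes homologs of isocitrate dehydrogenase in the lysine and leucine pathways, and 11 of its 13 genes were measured. In SD1 5 rose and 2 fell, beside 19.5% and 23.7% of all probe sets. In SD2 4 rose and 2 fell, beside 17.6% and 14.3%. The glutamine synthetase gene gln1 rose by 1.03 ± 0.27 in SD1 and 1.24 ± 0.27 in SD2 (log2 ± SE, limma adjusted p = 0.0152 and 0.0096). The gene glt1, for the glutamate synthase that uses 2-oxoglutarate and glutamine, rose by 0.90 ± 0.16 and 0.83 ± 0.16 (adjusted p = 0.00201 and 0.00498). Both glutamate dehydrogenase genes fell. The NAD-dependent gdh2 was at -0.82 ± 0.13 in SD1 and -0.55 ± 0.13 in SD2, and the NADP-dependent gdh1 at -0.65 ± 0.15 and -0.45 ± 0.15.

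The lysine genes lys4, for homocitrate synthase, and lys3 rose in both deletions (0.48 and 0.27 in SD1, 0.40 and 0.27 in SD2), and the leucine gene leu3 rose in SD1 (0.31). The call on leu3 held in only 4 of 13 alternatives, and ended with quantile normalization and with each array left out except WT array 2. That on lys3 held in 8 of 13 in SD1 and 6 of 13 in SD2. It ended in both with median centring and when WT array 2, WT array 3 or SD1 array 3 was left out, in SD1 also without SD1 array 1, and in SD2 also without any 1 of the SD2 arrays. The gene leu1, whose product is a dehydrogenase homologous to Idh1 and Idh2, was at -0.07 and -0.03 without passing. The group's median was 0.20 in SD1 (0.26, 0.10 and 0.22 within the numbers) and 0.24 in SD2 (0.25, 0.18 and 0.23). In SD1 3 genes rose when any of WT arrays 2 and 3 and SD1 arrays 1 and 3 was left out, and gln1 lost its call when WT array 2 was. In SD2 0 genes fell when WT array 2 was left out and 1 fell, gdh2, when any of WT arrays 1 and 3, SD1 arrays 2 and 3 and SD2 arrays 2 and 3 was.

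Of 7 listed carriers of cycle intermediates 5 were measured. Among all probe sets 19.5% were called higher and 23.7% lower in SD1, and 17.6% and 14.3% in SD2. Of the 5 carriers 2 rose in each deletion while 0 fell. They were oac1, for a mitochondrial oxaloacetate carrier (0.66 ± 0.12 in SD1 and 0.49 ± 0.12 in SD2, log2 ± SE), and mae1 (0.37 ± 0.062 and 0.43 ± 0.062). The product of mae1 is the malate permease of the plasma membrane and not a mitochondrial carrier. The citrate carrier gene ctp1 was at -0.09 and -0.04 and did not pass. The group's median was 0.20 in SD1 and 0.43 in SD2. With 5 genes, each median is the value of a single gene. In SD1 it was that of dic1, whose WT values lay near background and which did not pass in either deletion. In SD2 it was that of mae1, so that median is not the value of a mitochondrial carrier. Leaving out SD2 array 3 ended the call on oac1 in SD2 and left 1.

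Of 33 listed genes of the respiratory chain and ATP synthase 30 were measured, and 5 fell in SD1 and 3 in SD2, with 0 higher in either. The mitochondrial glycerol-3-phosphate dehydrogenase gene gut2 was at -1.23 ± 0.33 in SD1 and -1.76 ± 0.33 in SD2 (log2 ± SE, limma adjusted p = 0.0167 and 0.00503). It was the only gene of this group farther from WT than cit1, itself chosen for its fall, in either deletion. The call on gut2 in SD1 ended when WT array 2 or SD1 array 3 was left out. The ATP synthase gene atp1 fell in both (-0.41 and -0.34), as did qcr2 of complex III (-0.35 and -0.34), and the others that fell in SD1 were atp18 (-0.43) and the cytochrome c1 gene cyt1 (-0.42). The call on qcr2 ended in SD1 when SD1 array 3 was left out, and in SD2 when WT array 2, SD2 array 2 or SD2 array 3 was. That on cyt1 ended with median centring and when any of WT arrays 1 and 2 and SD1 arrays 2 and 3 was left out. Among all probe sets 23.7% were called lower in SD1 and 14.3% in SD2. The group's median was -0.14 in SD1 (-0.06, -0.24 and -0.08 within the numbers) and -0.10 in SD2 (-0.0042, -0.29 and -0.02). With quantile normalization 9 fell in each deletion, and in SD1 3 fell when WT array 2 was left out, 2 when SD1 array 3 was and 8 when SD1 array 1 was.

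The regulators examined were the CCAAT-binding complex, an activator of respiratory genes in yeasts, and factors of glucose repression, AMP-activated kinase and protein kinase A. All 17 listed genes were measured. In SD1 8 fell and 0 rose, beside 23.7% and 19.5% of all probe sets, and in SD2 6 fell and 0 rose, beside 14.3% and 17.6%. The protein kinase A catalytic subunit gene pka1 fell the most, by 1.28 ± 0.13 in SD1 and 1.17 ± 0.13 in SD2 (log2 ± SE, limma adjusted p = 0.000165 and 0.000598). Its regulatory subunit gene cgs1 was at -0.63 and -0.80, and rst2, an activator gene of glucose repressed transcripts, at -0.53 and -0.59.

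Of the CCAAT-binding subunits only php2 passed, at -0.74 ± 0.14 in SD1 and -0.52 ± 0.14 in SD2 (limma adjusted p = 0.00306 and 0.0225). The other subunit genes php3, php4 and php5 were at -0.07, 0.45 and 0.11 in SD1 and -0.04, -0.16 and 0.09 in SD2. The AMP-activated kinase genes ssp2 (-0.65 and -0.46) and amk2 (-0.70 and -0.57) fell in both deletions. The repressor gene scr1 did not pass (-0.02 and -0.26). The regulators' median was -0.36 in SD1 and -0.29 in SD2. When SD2 array 2 was left out 3 regulators fell in SD2, and when SD1 array 1 was left out 2 rose in SD1. The SD2 call on php2 ended without any 1 of the SD2 arrays, and that on ssp2 without WT array 2, WT array 3, SD2 array 1 or SD2 array 2. The call on cgs1 ended in SD1 without WT array 2, WT array 3, SD1 array 1 or SD1 array 3, and in SD2 without WT array 2 or SD2 array 2.

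**Figure D4:**
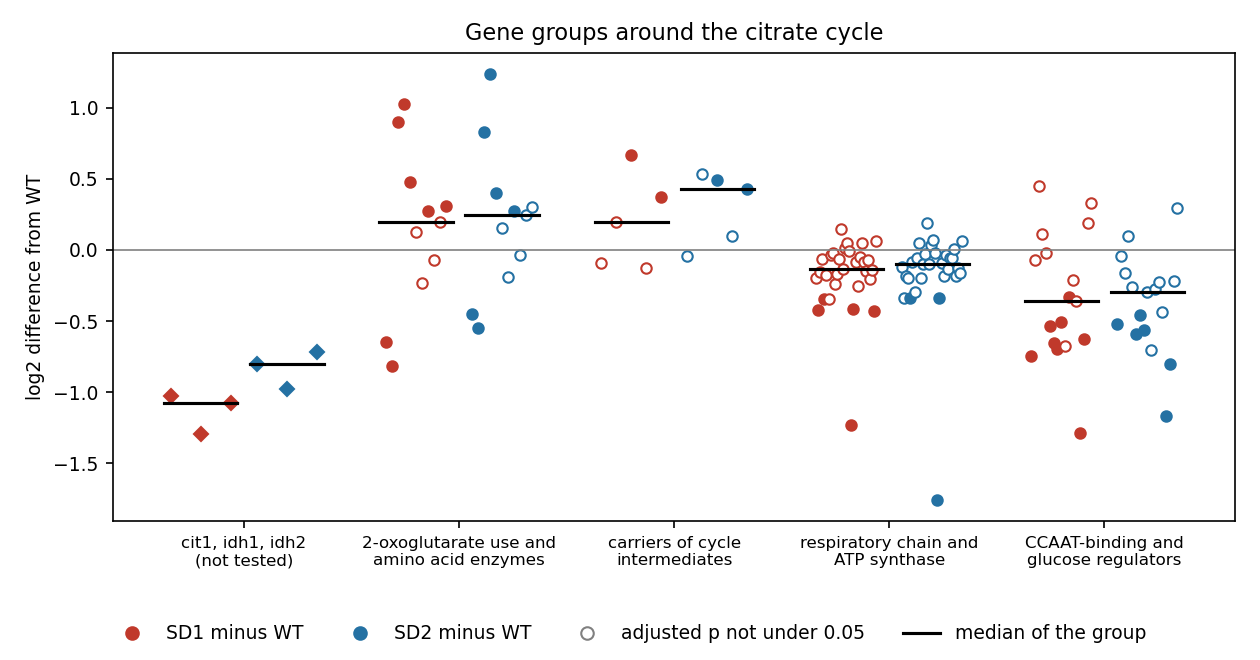
Log2 difference from WT (vertical axis) of cit1, idh1 and idh2 beside 4 gene groups, 1 point per gene, for SD1 and SD2. Filled points passed the test, open points did not, diamonds were not tested and bars are group medians. The medians of the 4 groups lie between -0.36 and 0.43, against -1.08 and -0.80 for the 3 genes, which were chosen for their falls. The 0.43 is the SD2 value of mae1, listed with the carriers, whose product is a plasma membrane permease.

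Glucose repressed genes and mating type markers were read as measures of the state of the cultures. Of 12 glucose repressed genes 9 fell and 1 rose in each deletion, with medians of -2.78 in SD1 and -3.13 in SD2. Among all probe sets 23.7% were called lower and 19.5% higher in SD1, and 14.3% and 17.6% in SD2. Of the 12 genes, ght1 was at -4.44 and -4.90, inv1 at -4.10 and -4.60, gal10 at -3.94 and -3.87, ght4 at -3.02 and -2.97 and ght3 at -2.69 and -3.42. The gene that rose was adh4 (1.38 and 1.09). Neither fbp1 (-1.30 and -1.46, limma adjusted p = 0.219 and 0.194) nor ght6 (-0.0085 and -0.047) passed. The 9 genes that fell were thus lower in the deletions together with cit1, idh1 and idh2. The mean of all 12 ran from 11.02 to 11.85 in WT, 8.72 to 9.22 in SD1 and 8.51 to 8.89 in SD2. In SD2 minus SD1 the median of the 12 genes was -0.23, whereas cit1, idh1 and idh2 were at 0.22 to 0.36.

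Of 7 M cell markers 6 fell in SD1 and 3 in SD2, among them mam1 (-1.66 and -1.12), mfm1 (-1.27 and -0.67), mam3 (-0.58 and -0.66) and, in SD1 only by its own test, mfm2 (-1.35) and mam2 (-0.81). Among all probe sets 23.7% were called lower in SD1 and 14.3% in SD2. The mean of the M cell list ran from 9.05 to 9.41 in WT, 8.09 to 8.38 in SD1 and 8.50 to 8.81 in SD2. Of 4 P cell markers map2 rose (1.11 and 0.96) and sxa1 fell (-0.53 and -0.27), while map3 (-0.0032 and 0.063) and map4 (-0.23 and -0.20) did not pass. The means of the P cell list ran from 8.76 to 8.91 in WT, 8.85 to 8.94 in SD1 and 8.89 to 9.01 in SD2. The calls on mfm2 and mam3 in SD1, and on mam3 and sxa1 in SD2, each ended without WT array 2 and without at least 2 other arrays, and that on mfm1 in SD2 ended with quantile normalization. In SD2 minus SD1 the M cell markers had a median of 0.53 (0.57, 0.54 and 0.63 within numbers 1, 2 and 3), beside 0.04 over all S. pombe probe sets. Of the 7 markers 6 lay above 0, the same sign as cit1, idh1 and idh2. Of these 7 differences 0 passed at an adjusted p of 0.05 and 3 at an unadjusted p of 0.05 (limma). The part of these changes in the values of cit1, idh1 and idh2 was not tested.

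The probe sets most like each gene were found by the root mean square difference between profiles over the 9 arrays, each profile centred on its own mean, among 2916 others with 1 gene symbol. For cit1 the nearest was mia40, for an import oxidoreductase of the mitochondrial intermembrane space, at 0.058 log2 units. Next came tfg2 (0.080), for a subunit of the transcription factor TFIIF, etr1 (0.087), for a mitochondrial enoyl reductase, coq7 (0.092), for an enzyme of ubiquinone synthesis, and erg12 (0.094), for mevalonate kinase. The median distance of all probe sets from cit1 was 0.48.

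For idh1 the nearest were sam50 (0.043), for a beta-barrel assembly protein of the mitochondrial outer membrane, alg3 (0.057), for a mannosyltransferase, tpp2 (0.082), the neutral trehalase gene ntp1 (0.090) and tum1 (0.099). Its median distance to all probe sets was 0.58. For idh2 they were tum1 (0.054), the trehalose-phosphate phosphatase gene tpp1 (0.062), rav1 (0.073), for a factor of vacuolar ATPase assembly, ayr1 (0.074) and mmc1 (0.075), beside a median of 0.48. Only tum1 was among the 5 nearest of more than 1 of the 3 genes.

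The 3 genes were not each other's nearest neighbours. From idh1, idh2 ranked number 14 (0.14) and cit1 number 16 (0.14). From idh2, idh1 ranked number 41 and cit1 number 56, and from cit1, idh1 ranked number 26 and idh2 number 36 (0.15). Since all 3 were chosen for lower values in the deletions, and profiles over 9 arrays are dominated by the strain differences, these ranks describe the shape of the profiles only.

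**Figure D5:**
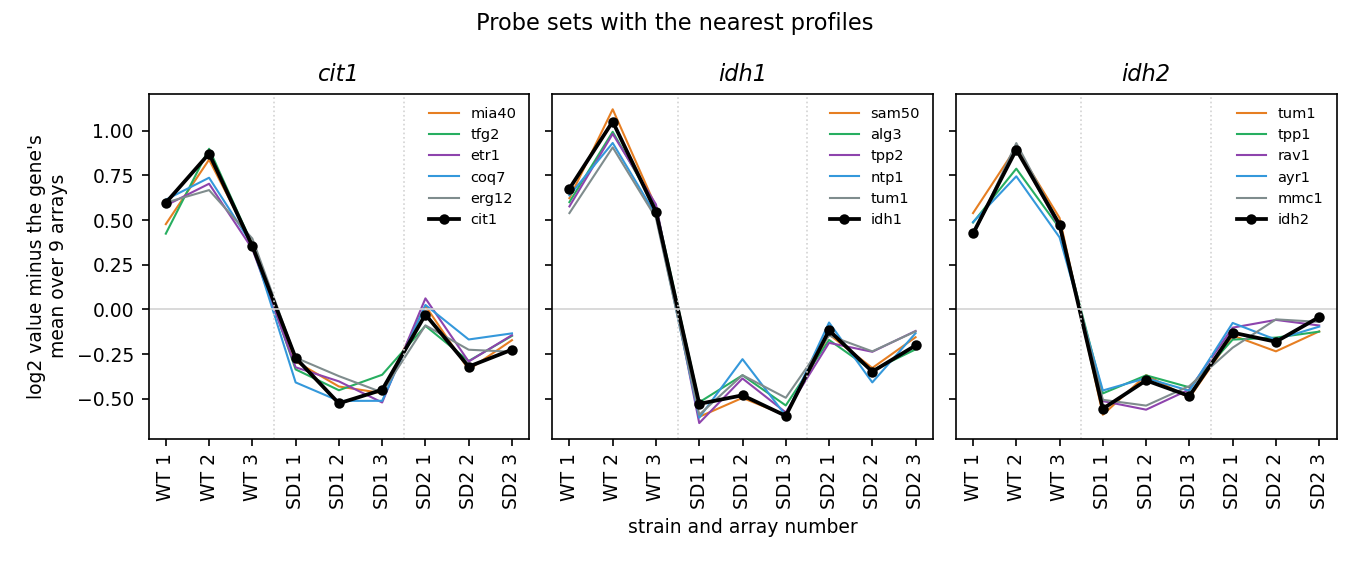
Log2 value minus the gene's mean over the 9 arrays (vertical axis) for cit1, idh1 and idh2 (black) and the 5 probe sets nearest to each, by strain and array number (horizontal axis). In every panel WT array 2 is the highest point of the black line, and all deletion arrays of the 3 genes lie below 0.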

How the data were processed

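The authors deposited 1 value per probe set and array on the log2 scale, made with RMA and Partek per the submitters' processing notes. Versions, background correction and joint normalization were not given in the sources used here. Of 10928 probe sets 2937 were assigned to S. pombe, 2934 by gene number in the annotation of assembly ASM294v3 and 3 by symbol, and 2601 to S. cerevisiae. A further 5177 carried no name here.

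Strains were compared in R 4.3.3 by limma 3.58.1. A single linear model held the mean of each strain and used all 9 arrays, and eBayes moderated the variances, with Benjamini-Hochberg adjustment over the 2937 S. pombe probe sets and a threshold of 0.05. The code was tested on simulated data. A gene with several probe sets was read from the brightest. Probe sets carrying more than 1 symbol were tested but not named. Precision is limited by the number of arrays.

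The 3 genes and all gene lists were chosen with earlier results of these data known. Genes were named by rule: all measured genes of pyruvate entry and of the remaining cycle, from every other list, per deletion, the called genes with the largest differences, up to 4, and the 5 nearest probe sets of each of the 3 genes. Given beyond that rule were lys4, lys3, leu3, leu1, ctp1, dic1, php3, php4, php5, scr1, adh4, fbp1, ght6, map3 and map4. They were chosen after their values were seen. The labels call the replicates biological.

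Alternatives were the replicate number as a block, median centring of each array, quantile normalization, a filter on dim probe sets and leaving out each array in turn.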

Additional observations from a re-analysis of the deposited data

How the results depend on the processing

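For cit1, idh1 and idh2 every log2 difference kept its sign under the replicate block, median centring, quantile normalization, the filter on dim probe sets and each array left out. Over arrays left out in turn, SD1 minus WT ran from -1.15 to -0.89 for cit1, -1.40 to -1.15 for idh1 and -1.16 to -0.93 for idh2. SD2 minus WT ran from -0.93 to -0.67, -1.09 to -0.83 and -0.80 to -0.57. SD2 minus SD1 passed in no alternative, with limma adjusted p-values of 0.38 to 0.897 for cit1, 0.127 to 0.82 for idh1 and 0.0622 to 0.78 for idh2.

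The criterion for taking the numbers as pairs was a correlation of at least 0.1 between same-numbered deviations. It was not met, since these correlations ran from -0.10 to 0.87. Only WT array 2 with SD2 array 2 lay below it. Pairs numbered 1 ran from 0.79 to 0.87 and pairs numbered 3 from 0.33 to 0.62. Of 9 arrays 3 correlated best with their own number. With the replicate block, 26.8% and 33.0% of all probe sets were called higher and lower in SD1 and 26.0% and 23.6% in SD2. In pyruvate entry 1 gene, lat1, then rose in each deletion (limma adjusted p = 0.0193 and 0.0222). In the 2-oxoglutarate group 7 then rose in each deletion, and 3 fell in SD1 and 2 in SD2. Among the carriers 1 fell in SD1. In respiration 12 fell in SD1 and 9 in SD2, and 11 regulators fell in each deletion. The respiratory falls, 12 and 9 of 30, then lay above the shares of all probe sets, and without the block, at 5 and 3 of 30, below them. In SD2 minus SD1 3 M cell markers were higher with the block. With each array centred on its median, 1 gene of pyruvate entry and 1 of the 2-oxoglutarate group fell in SD2 and 1 regulator rose in SD1. Quantile normalization gave 9 respiratory genes lower in each deletion and 1 regulator higher in SD1. Of 312 counts under alternatives 43 moved by over 1.5 times.

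Over arrays left out, the counts ranged as follows. In SD1 0 to 1 cycle genes rose, 3 to 4 genes of the 2-oxoglutarate group rose, 2 to 8 respiratory genes fell and 0 to 2 regulators rose. In SD2 1 to 2 genes of pyruvate entry fell, 0 to 3 cycle genes fell, 0 to 2 of the 2-oxoglutarate group fell, 1 to 3 carriers rose and 3 to 8 regulators fell. The causes were not tested.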
